A study of Rattus norvegicus with 8 samples.

Results

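Avp and Oxt, the genes of the hypothalamic peptides vasopressin and oxytocin, were followed in the hypothalamus of rats kept on chow or on a high fat diet. The members were all rows of the deposited table whose symbol was Avp or Oxt. Each gene had a single row, so 2 of 73922 polyadenylation sites and 2 of 12255 genes were described. The libraries were made by WTTS-seq (whole transcriptome termini site sequencing), which reads the 3′ ends of polyadenylated RNA, so that a read marks where a transcript was cleaved and tailed and its count stands for the abundance of that end. Adult male Long-Evans rats formed both groups, with 4 libraries each from 8 animals in all. The control group ate standard rodent chow, with 0.51 kcal/g from fat, and the obesity group (labelled as diet-induced obesity) had free access to a high fat diet, with 1.71 kcal/g from fat, both for 36 days. No transgene, drug or surgery is named for either group. The comparison addresses whether the diet shifts the 3′ ends of hypothalamic RNA.

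Vasopressin and oxytocin are near-identical nonapeptide hormones, each cut from a precursor that also carries its neurophysin, the carrier protein of the secretory granule. Large (magnocellular) neurons of the paraventricular and supraoptic nuclei make one or the other and release it from the posterior pituitary into the blood, vasopressin to retain water and oxytocin for milk ejection and labour. Smaller neurons of the paraventricular nucleus release both within the brain, where oxytocin is known for restraining food intake and vasopressin for its part in the stress axis, and the suprachiasmatic nucleus makes vasopressin as well.

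The pair lies tail-to-tail on chromosome 3 (Rnor_6.0). The Oxt site was on the plus strand, from base 123107449 to base 123107532, a cluster of 84 bases with its most used position at 123107473. The Avp site was on the minus strand, from 123117477 to 123117537, a cluster of 61 bases with its most used position at 123117491. These positions were 10018 bases apart, the 3′ ends of the genes facing each other, and 0 other sites lay between them. Both genes are listed as protein coding. Where the sites fall within the transcripts was not analysed here. In both groups every read of either gene was therefore assigned to 1 transcript end, and a choice between sites, as tested for genes with several, could not be measured. A single site was listed for 3979 of the 12255 genes (32.5%).

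The sequence upstream of each gene is shown because both members were lower in the obesity libraries in every numbered pair, described further on, to show which motifs their upstream DNA has in common. These are the 250 bases before the annotated start of transcription, 5′ to 3′ on the gene's own strand, from RefSeq on build GRCr8, which is not the build of the sites. The Avp promoter spans chr3:138248523-138248772 on the minus strand and the Oxt promoter chr3:138235504-138235753 on the plus strand. Capitals mark matches to 3 motifs searched on both strands: the E-box CACGTG bound by clock and other basic helix-loop-helix factors, the nuclear receptor element TGACCT, which reads AGGTCA on the other strand, and the cAMP response core CGTCA, which reads TGACG on the other strand. No base belonged to overlapping motifs.
Avp: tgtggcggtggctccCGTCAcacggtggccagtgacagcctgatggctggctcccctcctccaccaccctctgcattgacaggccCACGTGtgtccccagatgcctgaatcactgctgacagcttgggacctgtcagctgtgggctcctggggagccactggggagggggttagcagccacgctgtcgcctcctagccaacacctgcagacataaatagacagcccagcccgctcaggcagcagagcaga
Oxt: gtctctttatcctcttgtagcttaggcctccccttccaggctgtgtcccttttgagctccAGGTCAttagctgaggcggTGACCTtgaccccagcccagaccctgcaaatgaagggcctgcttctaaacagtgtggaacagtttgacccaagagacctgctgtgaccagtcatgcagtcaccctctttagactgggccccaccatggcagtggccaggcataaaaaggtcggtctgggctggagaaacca
The Avp stretch held the E-box 165 to 160 bases before the start and the cAMP response core 235 to 231 bases before it. The Oxt stretch held the nuclear receptor element in both orientations, AGGTCA 190 to 185 bases and TGACCT 171 to 166 bases before its start. The pair shared none of the matches within these windows. The E-box was in 5.6% of 33469 rat promoters of this length, the nuclear receptor element in 14.1% and the cAMP response core in 18.2%. GC content was 63.6% upstream of Avp and 55.2% upstream of Oxt.

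Sequencing depth and the general state of the libraries set the precision of these values. The 8 libraries held between 1417531 and 1957726 reads. Between 4062 and 14788 of the sites had no read in a given library, the highest numbers being in control library 1 (14788) and obesity library 1 (10659). The labels number the libraries 1 to 4 in each group, and libraries of the same number deviated from their group means together, with correlations across 8302 genes of 0.276 to 0.405 against -0.229 to 0.0958 for different numbers. The libraries are therefore given as numbered pairs below, although the meaning of the number is not stated in the labels. Markers of the dissected region were present: 7 of 8 hypothalamic markers were listed, with summed levels of 180.6 to 256.8 CPM (library-size scaled counts, the usual CPM with TMM factors) in control and 192.6 to 252.4 CPM in obesity libraries. Of the pituitary and choroid plexus markers, Gh1, Lhb and Ttr each stood out in 1 library. The anterior pituitary sum (3 of 5 markers, with Prl and Tshb not analysed here) ran from 17.9 to 56.0 CPM in control and from 6.13 to 126.6 CPM in obesity libraries, the top value being obesity library 2 with 87 reads of Gh1 (growth hormone) and 58 of Lhb. Cga, the third pituitary marker, went otherwise, with 71, 34, 13 and 19 reads in control and 35, 11, 71 and 0 in obesity libraries 1 to 4. Ttr, a choroid plexus transcript, had 144 reads in obesity library 4 and at most 2 in any control library. Of the suprachiasmatic markers only Vipr2 (1 of 7) was listed, at 0.813 to 12.04 CPM in control and 4.10 to 10.9 CPM in obesity libraries, so the share of that nucleus in each sample was not tested.

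Avp was one of the most abundant transcripts of the tissue. Its 9448 reads were 0.071% of all reads, only 1.05% of genes had more, and among genes with a single site it ranked 6. The raw reads in control libraries 1 to 4 were 1149, 1288, 1266 and 1578, and those in obesity libraries 1 to 4 were 809, 914, 1409 and 1035. Scaled for library size, control libraries held 813.9, 861.8, 1029 and 1199 CPM and obesity libraries 607.6, 741.9, 825.4 and 704.4 CPM. Obesity library 3 lay just above control library 1, so the groups overlapped by that one pair of values, while the 3 other obesity libraries lay under every control. The mean was 976 ± 175.1 CPM in control and 719.8 ± 90.3 CPM in obesity rats (SD, n = 4 each). Among all genes of a library, Avp ranked between 79 and 140 in controls and between 124 and 219 in obesity libraries.

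The fitted difference for Avp, obesity against control, was -0.44 on the log2 scale (SE 0.19, 95% interval -0.84 to -0.04), or -26.2% (interval -44.1% to -2.69%). Its unadjusted p was 0.0332 and its adjusted p 0.921 (edgeR quasi-likelihood test, Benjamini-Hochberg over all genes), so the lower level did not pass the threshold of 0.1. In bulk tissue, fewer cells of a type and less RNA per cell cannot be told apart, and this holds for both members. With the library number as a block the difference was -0.43 (SE 0.13), with an unadjusted p of 0.0033 and an adjusted p of 0.196 (edgeR). Leaving out both libraries numbered 2, an alternative chosen after seeing the data, brought the blocked fit to -0.50. Its adjusted p was 0.037 (edgeR), the only one of 19 alternatives in which Avp passed. In that setting 554 genes passed, against 34 with all pairs. The blocked fits without both libraries numbered 1, 3 or 4 gave Avp -0.43, -0.47 and -0.30. Their adjusted p were 0.432, 0.522 and 0.784 (edgeR). Without control library 4, the highest, the unblocked value was -0.31, with an unadjusted edgeR p of 0.154.

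Oxt was far less abundant. It had 547 reads, 0.004% of all reads, and 27.6% of genes had more. Control libraries 1 to 4 had 88, 84, 66 and 100 reads and obesity libraries 1 to 4 had 60, 46, 38 and 65. In CPM these were 62.3, 56.2, 53.6 and 76.0 in control and 45.1, 37.3, 22.3 and 44.2 in obesity libraries. Every obesity library lay under every control library, a separation that 1.77% of all genes showed in this direction. The means were 62.0 ± 9.99 CPM in control and 37.2 ± 10.6 CPM in obesity rats (SD, n = 4 each). In rank among the genes of its library, Oxt stood between 2310 and 3145 in controls and between 3509 and 5712 in obesity rats.

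For Oxt the fitted difference was -0.74 on the log2 scale (SE 0.30, 95% interval -1.37 to -0.11), or -40.1% (interval -61.2% to -7.52%), with an unadjusted p of 0.0234 and an adjusted p of 0.921 (edgeR). With the number as a block it was -0.77 (SE 0.26), with an unadjusted p of 0.00657 and an adjusted p of 0.245 (edgeR). Neither value passed the threshold, and none of the 19 alternatives brought Oxt past it. Without obesity library 3, the lowest, the difference was -0.54, with an unadjusted edgeR p of 0.0847.

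**Figure D1:**
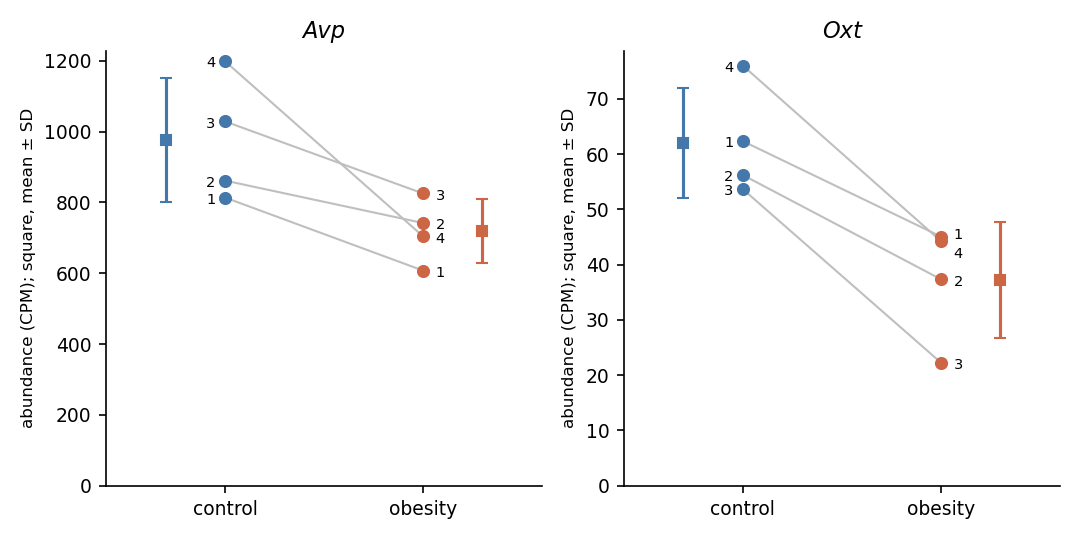
Abundance of Avp (left) and Oxt (right) in CPM (vertical axes, from 0) in the 4 control and 4 obesity libraries, with points numbered as in the labels, grey lines joining libraries of the same number, and squares with bars giving the group mean ± SD. All 4 lines slope down for both genes, and the Oxt groups do not overlap, whereas obesity library 3 (825.4 CPM) lies above control library 1 (813.9 CPM) for Avp.

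In the unblocked comparison 0 of 12255 genes passed an adjusted p of 0.1 (edgeR, 0.0%), 627 genes (5.12%) had an unadjusted p under 0.05, of which 311 were higher and 316 (2.58%) lower in obesity, and the DESeq2 Wald test passed 4. Both members were among the lower 2.58%. With the block, 34 genes (0.277%) passed the adjusted threshold and 755 (6.16%) were lower at an unadjusted p under 0.05, and both members were again in the latter group only. At the level of single sites, 1 of 73922 (0.00135%) passed, and neither member site did: Avp was at -0.49 (SE 0.26) and Oxt at -0.80 (SE 0.35), with unadjusted p of 0.0796 and 0.0373 and both with an adjusted p of 1.00 (edgeR).

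Pair by pair, Avp was lower in the obesity library of all 4 numbers, by -25.3%, -13.9%, -19.8% and -41.3% in pairs 1 to 4. Oxt was lower in all 4 as well, by -27.7%, -33.6%, -58.5% and -41.8%. Being lower in all 4 pairs was shared by 1218 of 12255 genes (9.94%). The pair with the greatest Avp difference was number 4, and that with the greatest Oxt difference was number 3, where Avp differed by -19.8%.

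**Figure D2:**
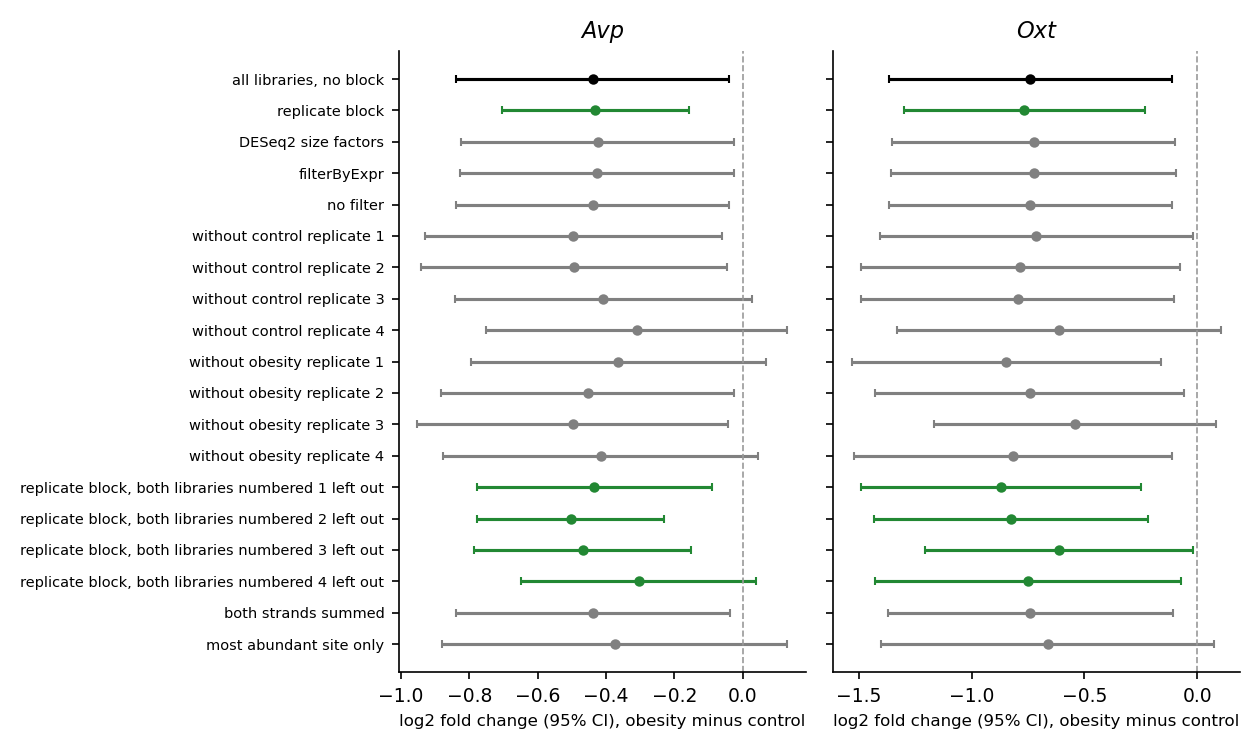
Log2 fold change of Avp (left) and Oxt (right), obesity minus control, with 95% intervals (horizontal axes) under each edgeR fit (rows): all libraries without the block in black, fits with the replicate block in green, other alternatives in grey. Every point lies under 0, between -0.50 and -0.30 for Avp and between -0.87 and -0.54 for Oxt, and 5 of the grey Avp intervals and 3 of the grey Oxt intervals reach 0, as does the green Avp interval without the libraries numbered 4.

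The spread among libraries of one group was wider than counting alone gives. The coefficient of variation of Avp was 17.9% in control and 12.5% in obesity libraries, against 2.75% and 3.10% from counting. For Oxt it was 16.1% and 28.4%, against 10.9% and 13.8% from counting, a larger part of its spread than for Avp. From lowest to highest library, Avp spanned 1.47-fold in control and 1.36-fold in obesity rats, and Oxt 1.42-fold and 2.03-fold. The fitted biological coefficient of variation of Avp (0.228) was close to the median of 305 genes within 2-fold of its abundance (0.240), and that of Oxt (0.296) was under the median of its 3605 such genes (0.328).

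The ratio of the pair within a library does not depend on the scaling. Control libraries 1 to 4 held 13.1, 15.3, 19.2 and 15.8 Avp reads per Oxt read. Obesity libraries held 13.5, 19.9, 37.1 and 15.9. Obesity library 3 stood apart, and the other obesity libraries lay within or next to the control range. On the log2 scale the mean ratio was 3.96 ± 0.226 in control and 4.30 ± 0.635 in obesity rats (SD, n = 4 each), a difference of 0.34 (2-sided exact permutation test over 70 arrangements, p = 0.343, smallest possible 0.0286). In each numbered pair the obesity library had the higher ratio, but in an exact sign-flip test of the 4 pairs p was 0.125, the smallest it can give. Without obesity library 3 the difference was 0.04. As a share of the reads of both genes, Oxt made up 4.96% to 7.11% in control libraries. The obesity libraries held 6.90%, 4.79%, 2.63% and 5.91%, and the interval of obesity library 3 (1.92% to 3.58%, 95% Wilson) did not reach that of any control. These intervals cover counting error only, as the reads carry no molecular identifiers.

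**Figure D3:**
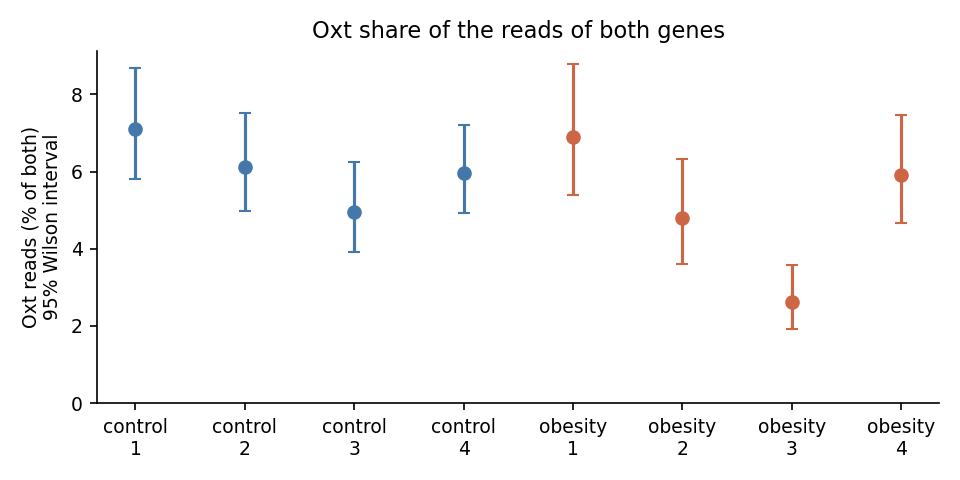
Oxt reads as a percentage of Avp and Oxt reads together (vertical axis) in each of the 8 libraries (control blue, obesity orange), with 95% Wilson intervals as bars. Obesity library 3 is lowest at 2.63%, and the other 7 libraries sit between 4.79% and 7.11%.

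Across the 8 libraries the log2 levels of Avp and Oxt correlated with Pearson r = 0.466 (permutation p = 0.224) and Spearman rho = 0.524 (permutation p = 0.197). Without control library 4 and obesity library 1, the libraries farthest from the median of Avp, r was 0.266 (permutation p = 0.60, n = 6). With the group means taken off, r was -0.26. A group of 4 libraries is too small for a value within it. Leaving out single libraries took r from 0.168 without control library 4 (exact permutation p = 0.683) to 0.77 without obesity library 3 (exact permutation p = 0.048).

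The genes whose log2 levels followed each member most closely over the 8 libraries were taken from those with a mean of at least 20 CPM, as a description. For Avp they were Nars (asparaginyl-tRNA synthetase, r = 0.938), Purb (a DNA- and RNA-binding protein, r = 0.912), Cog8 (a Golgi tethering subunit, r = 0.909), Insig1 (an endoplasmic reticulum sterol regulator, r = 0.908) and Dpf1 (a neuronal chromatin remodelling subunit, r = 0.903). For Oxt they were Nr2f2 (the orphan nuclear receptor COUP-TFII, r = 0.957), Mafg (a small Maf transcription factor, r = 0.946), Chrnb2 (a nicotinic receptor subunit, r = 0.93), LOC102555727 (r = 0.92) and Rnf115 (a ubiquitin ligase, r = 0.919). The lists held no gene in common. Oxt itself was not near the top for Avp, since 16.8% of 6136 genes had a higher r to Avp than Oxt had, and 13.0% had a higher r to Oxt than Avp had.

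Among the hypothalamic peptide genes listed for this comparison, Avp stood first. Of 22 listed, 14 were analysed, and since 3′-end counting gives 1 end per transcript, their CPM were compared without scaling for length. Avp was first in all 8 libraries, and its lowest library (607.6 CPM) was above the mean of the next, Pmch (melanin-concentrating hormone), at 156.5 CPM over the 8 libraries. Cartpt (the CART peptide) followed at 155.4 CPM and Penk (proenkephalin) at 105.5 CPM, and Pmch and Cartpt did not differ beyond their spread. Oxt, at 49.6 CPM, was at place 5 in every library except obesity library 2, where Pomc (proopiomelanocortin, mean 27.8 CPM) was ahead of it. Penk was above Oxt in each library, whereas the ranges of Oxt and Pomc overlapped.

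**Figure D4:**
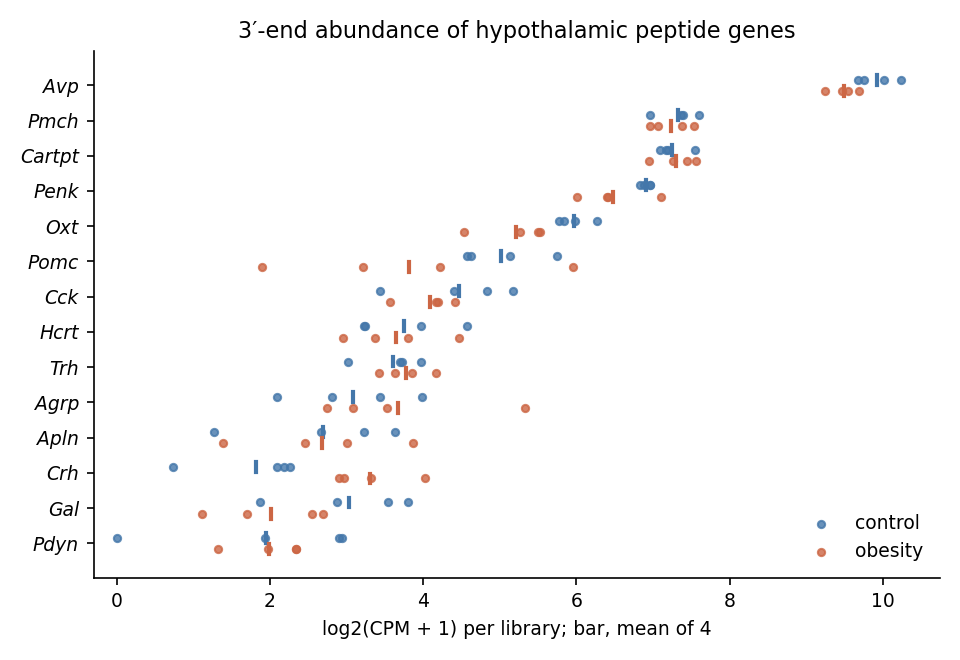
Abundance of 14 hypothalamic peptide genes as log2(CPM + 1) (horizontal axis) in each control (blue) and obesity (orange) library, with vertical bars for the mean of 4. Avp lies apart at the right with its lowest library at 607.6 CPM, and Oxt is at place 5 with a mean of 49.6 CPM.

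The other genes of these neurons were taken from lists by role. Of 44 listed genes, 32 were analysed, and 0 passed an adjusted p of 0.1 with or without the block (edgeR). An unadjusted edgeR p under 0.05 was found for 4 (Crh, Sim1, Fos and Cadps, 12.5%), all higher in obesity. Among all 12255 genes, 5.12% had such a p in either direction, and 311 genes were higher. The median log2 difference over the 32 was 0.07, with 0.00 over all genes. Without the block none of the 32 was lower at that unadjusted p. With the block 4 were higher and 2, Scg3 and Scg5, were lower (6.25%, against 6.16% of all genes). For Crh, Otp, Fos and Cadps every obesity library lay above every control. The share of all genes with that separation was not counted, so no weight is put on it where these genes are described.

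The receptors Avpr1a, Avpr1b, Avpr2 and Oxtr, through which the peptides act, were not analysed here. All 9 listed peptides and enzymes that magnocellular or paraventricular neurons make beside Avp or Oxt were analysed, with a median of -0.12, 5 lower in sign and 4 higher. Penk was at 119.1 ± 5.36 CPM in control and 91.9 ± 31.2 CPM in obesity rats (SD, n = 4 each; -0.38, SE 0.25, edgeR adjusted p = 0.942). Cck (cholecystokinin, made with oxytocin) was at 23.1 ± 10.7 and 16.4 ± 3.94 CPM (-0.50, SE 0.44, edgeR adjusted p = 0.956). Neither passed the test, and the groups overlapped for both.

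Crh (corticotropin-releasing hormone, which parvocellular vasopressin neurons also make) had the smallest p of the peptides, and is named after its values were seen because its mean was under 10 reads. It had 5, 1, 4 and 5 reads in control and 12, 8, 26 and 10 reads in obesity libraries 1 to 4. The fitted difference was opposite in sign to that of Avp (1.72, SE 0.74, edgeR adjusted p = 0.921). At such counts, 1 to 26 reads, the size of the difference is poorly fixed.

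The 4 transcription factors of the paraventricular and supraoptic lineage were all higher in sign. Their median of 0.99 lies between the low-count factors Sim1 and Otp and the better counted Arnt2 and Pou3f2. Otp, with 0 to 11 reads per library, was at 1.78 (SE 1.02), and Pou3f2 was at 0.21 (SE 0.33). Otp and Pou3f2 are named here after their values were seen. Sim1, which the magnocellular neurons need in order to form, had 0, 5, 2 and 10 reads in control and 16, 4, 27 and 31 reads in obesity libraries 1 to 4. Obesity library 2 lay within the control range (2.03, SE 0.82, edgeR adjusted p = 0.921). Arnt2, the partner of Sim1, was at 179.1 ± 33.7 CPM in control and 199.5 ± 26.0 CPM in obesity rats (0.15, SE 0.21, edgeR adjusted p = 0.982). Sim1 also stands in the hypothalamic marker list, whose summed range was alike in both groups as given above. That sum is mostly Pmch, a lateral hypothalamic gene (means of 161.7 CPM in control and 151.3 CPM in obesity). Sim1 (means of 3.14 and 13.0 CPM) and Otp (1.455 and 5.21 CPM) add little to it. Whether the cut of the tissue moved with Sim1 was not tested.

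Of 5 regulators of Avp or Oxt RNA and of neuronal activity, 4 were analysed (median -0.20) and Creb3l1 was not. Fos, the immediate early gene used as a mark of activity in these nuclei, was at 53.8, 24.8, 24.4 and 47.1 CPM in control and 65.4, 55.2, 124.2 and 78.3 CPM in obesity libraries 1 to 4. The fitted difference was 1.11 (SE 0.34, edgeR adjusted p = 0.921, and 0.132 with the block). Fos is made in most cell types of the tissue. Caprin2, an RNA-binding protein that acts on the tail length of Avp RNA, was at 50.9 ± 11.0 CPM in control and 40.7 ± 12.1 CPM in obesity rats (-0.31, SE 0.31, edgeR adjusted p = 0.962), and was lower in all 4 pairs.

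Of 11 genes that cut and package prohormones in dense-core granules, 9 were analysed, 3 lower and 6 higher in sign, with a median of 0.09. Pcsk1 and Pcsk1n were not analysed here. Scg5 (the chaperone of the convertase PC2) was at 259.1 ± 63.6 CPM in control and 204.9 ± 76.0 CPM in obesity rats (-0.34, SE 0.26, edgeR adjusted p = 0.942). With the block it was at -0.38 (SE 0.16, edgeR adjusted p = 0.376). Scg3 (secretogranin III) was at 39.0, 78.3, 56.9 and 40.3 CPM in control and 22.5, 72.2, 21.7 and 19.7 CPM in obesity libraries 1 to 4. It was lower in all 4 pairs (-0.67, SE 0.42, edgeR adjusted p = 0.928), and at -0.80 with the block (SE 0.29, edgeR adjusted p = 0.278). The library numbered 2 was the highest of its group in both control and obesity rats.

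All 5 genes of peptide release and breakdown were analysed (median 0.10). Cadps, which primes dense-core granules for release, was at 240.1, 274.3, 243.0 and 323.0 CPM in control and 395.8, 359.6, 373.2 and 480.5 CPM in obesity libraries 1 to 4. The fitted difference was 0.57 (SE 0.19, edgeR adjusted p = 0.921, and 0.103 with the block). Its paralog Cadps2 was at 43.9 ± 10.9 CPM and 59.0 ± 12.2 CPM (0.42, SE 0.29, edgeR adjusted p = 0.942). Of 6 osmotic and angiotensin sensing genes only Aqp4, the glial water channel, was analysed (16.3 ± 11.1 CPM in control, 21.0 ± 8.69 CPM in obesity, 0.35, SE 0.49, edgeR adjusted p = 0.983).

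**Figure D5:**
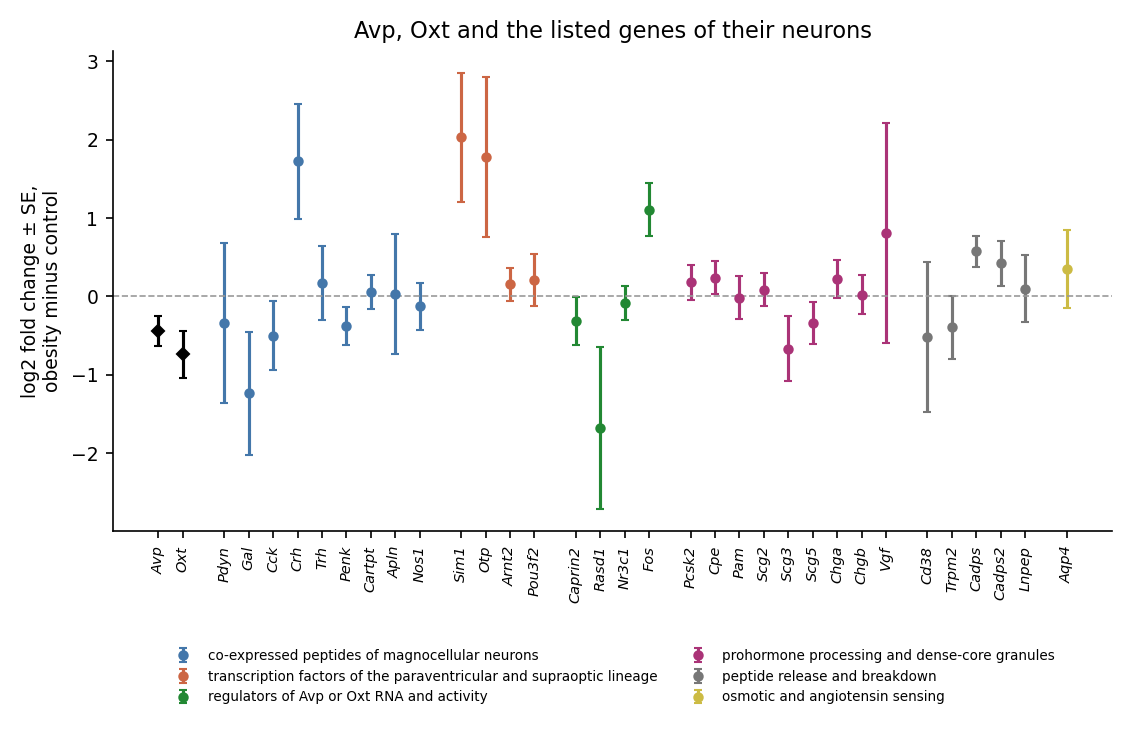
Log2 fold change ± SE, obesity minus control (vertical axis), of Avp and Oxt (black diamonds) and of the 32 analysed genes of the role lists (points coloured by list). Avp (-0.44) and Oxt (-0.74) lie under 0, the 4 transcription factors all lie above it, and none of the genes plotted passed an adjusted p of 0.1.

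Around the pair, 200 kb to each side held 71 sites, of which 67 had a gene, and 11 genes besides Avp and Oxt. Avp took 60.1% of the reads of the window and Oxt 3.48%, and the next most read site had 315 reads. The nearest other sites were those of Mrps26, 12546 bases before the Oxt site, and of Ubox5, 15419 bases after the Avp site. Of the 11 neighbours 5 were lower and 6 higher in sign, with a median of 0.15 and a range of -0.70 to 1.18. None passed an adjusted p of 0.1 (edgeR), and the groups overlapped for all 11. A full separation in the lower direction, as for Oxt, was shown by only 1.77% of all genes. Ubox5 was the only neighbour with an unadjusted edgeR p under 0.05. It had 14, 11, 13 and 12 reads in control and 63, 12, 23 and 20 in obesity libraries 1 to 4 (1.18, SE 0.54, edgeR adjusted p = 0.921), with obesity library 1 far above the rest. The other neighbours with enough reads were Vps16 at -0.70, Lzts3 at -0.40, Mrps26 at -0.18, Ddrgk1 at -0.07, Pced1a at 0.15, RGD1565616 at 0.22 and Ptpra at 0.34.

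Each difference of the pair was also set beside the libraries with markers of other tissues. Obesity library 2 held 87 reads of Gh1 and 58 of Lhb, while Cga was also read in other libraries. Without obesity library 2, Avp was at -0.45 and Oxt at -0.74, with unadjusted edgeR p of 0.0394 and 0.0358. Without obesity library 4, which held Ttr, Avp was at -0.42 and Oxt at -0.82, with unadjusted edgeR p of 0.0737 and 0.0256. Neuronal markers summed to between 1805 and 2604 CPM in control and between 1971 and 2655 CPM in obesity libraries. The lateral hypothalamic sum of Hcrt and Pmch was 131.7 to 215.4 and 130.7 to 193.3 CPM, and the thalamic sum 61.6 to 128.4 and 24.0 to 144.5 CPM. These ranges overlapped between the groups.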

How the data were processed

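WTTS-seq libraries of 8 rat hypothalami were analysed from 1 deposited table of read counts per polyadenylation site. Per the labels, total RNA was fragmented, poly(A)+ RNA enriched, and cDNA size-selected and amplified. The submitters' processing notes name Bowtie2 2.2.3 and the build Rnor_6.0, while trimming, site clustering and gene assignment are not given in the sources used here. The deposited counts are whole reads without molecular identifiers, so intervals cover counting error only. Where amplification favours some fragments, ends of different genes may not be on one scale. The lowest site total was 30 reads, so rarer sites were not measured. 1 line without a site was left out.

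Reads were summed per gene over sites on its main strand and fitted over all genes and all sites with edgeR 4.0.16 (TMM scaling, quasi-likelihood test, robust, at least 16 reads in total, group as the only term) in R 4.3.3, with Benjamini-Hochberg adjustment and a threshold of 0.1. CPM are counts scaled by TMM library sizes. DESeq2 1.42.0, other filters and scalings, a replicate block and the leaving out of each library were alternatives. The edgeR fit was also run on simulated counts with planted changes much larger than those of Avp and Oxt and no replicate effect. That run cannot tell whether differences of their size would be found. The ratio was compared by exact permutation after adding 0.5 reads (scipy 1.17.1). Usage of sites could not be tested, since each gene had 1 site. The labels number 4 libraries in each group but do not tie them to litters or days; same-numbered libraries correlated in every pair (0.276 to 0.405), so the block was used beside the main fit. The p-values of group differences set each difference against the spread between these libraries.

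Avp and Oxt, the gene lists and the tests were chosen with earlier results of these data known. By rule, neighbours within 200 kb were named when both group medians reached 10 reads, and per list the 2 genes of smallest p with a mean of at least 10 normalized reads, plus the 5 genes most correlated with each member. Promoter sequences came from RefSeq (GRCr8).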

Additional observations from a re-analysis of the deposited data

Results flagged for a closer look

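One value stood apart from its group among 28 checks of a sample against the others of its group, where chance gives about 1.4. Scg3 was at 72.24 CPM in obesity library 2 and at 19.74 to 22.53 CPM in the 3 other obesity libraries. Control library 2 was likewise the highest of its group for Scg3, at 78.28 CPM against 38.96 to 56.89 CPM. Obesity library 2 held 87 reads of Gh1 and 58 of Lhb and control library 2 held 0 of either, and their part in the Scg3 value was not tested. No value of Avp or Oxt stood apart by this measure.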

How the results depend on the processing

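The log2 fold changes of Avp and Oxt kept their direction in all 19 alternatives for genes and all 17 for sites. Not all of these could differ: the fit without a filter equalled the main one, since the lowest site total was 30 reads. Summing both strands or using only the most abundant site left the reads of Avp and Oxt unchanged. The fold changes ran from -0.50 to -0.30 for Avp (-0.50 to -0.31 when single libraries were left out) and from -0.87 to -0.54 for Oxt (-0.85 to -0.54). With the replicate block, Avp was -0.43 and Oxt -0.77 (edgeR adjusted p = 0.196 and 0.245), and the block changed no call of either gene, while it moved the gene count from 0 to 34 and the site count from 1 to 4. Leaving out both libraries of a number, an alternative chosen after seeing the data, took Avp past the threshold once, without number 2 (-0.50). In the blocked fits without numbers 1, 2, 3 and 4 the gene counts were 30, 554, 7 and 0 and the site counts 4, 315, 14 and 3. DESeq2 passed 4 genes and 10 sites, and filterByExpr 0 sites. Leaving out single libraries gave 0 to 1 genes and 0 to 1 sites. The log2 ratio ran from 0.04 to 0.53, and Pearson r from 0.17 to 0.77, past 0.05 only without obesity library 3. With 4 pairs the sign-flip test of the ratio cannot give a p under 0.125, so it says nothing of that call. The cause of these shifts was not tested. An unadjusted edgeR p under 0.05 was lost for Avp without control library 3 (0.0635) or 4 (0.154) or obesity library 1 (0.0926) or 4 (0.0737) and in the blocked fit without number 4 (0.0792). For Oxt it was lost without control library 4 (0.0899) or obesity library 3 (0.0847). Both genes lost it when every gene was counted by its most abundant site only (0.133 and 0.0746). In that fit the reads of Avp and Oxt were the same, and only the reads of other genes, and with them the scaling and fitted spread, changed. Alternatives for site usage were not run, because each gene has 1 site. Counting error at 38 to 100 Oxt reads per library gives a coefficient of variation of 10.9% in control and 13.8% in obesity libraries, and the rest of the spread of Oxt (16.1% and 28.4% in all) lies between libraries.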
